A study of Danio rerio with 20 samples.

Results

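Mitochondrial ribosomal protein genes were taken as the rows of the deposited table whose symbol begins with mrpl or mrps followed by a number. This rule found 61 genes among the 9368 listed, 35 named mrpl and 26 named mrps. Of these, 60 had a mean above 2.75 CPM (reads scaled to a common library total) over the pools and were tested, beside 6873 other genes. The remaining gene, mrpl45, whose product in mammals anchors the ribosome to the inner membrane, had 3 reads in all pools together and is given no fold change. All 61 symbols are in the RefSeq annotation of the assembly GRCz12tu, and 14 further symbols of the family in that annotation were not analysed here.

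The mitochondrial ribosome translates the few messenger RNAs encoded by mitochondrial DNA, all of which specify subunits of the respiratory chain and ATP synthase. Its RNAs come from mitochondrial DNA, whereas its proteins are encoded in the nucleus, made in the cytosol and imported. The large subunit carries the peptidyl transferase centre and the exit tunnel, and the small subunit binds and decodes the messenger RNA. Part of the proteins have counterparts in bacteria, and the others were added during the evolution of mitochondria.

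RNA was measured in whole zebrafish embryos of the AB strain at 72 hours post fertilization (hpf), the protruding-mouth stage. The exposed groups received 0.5, 1, 2 or 10 mg/L of pH-neutralized hexafluoropropylene oxide-dimer acid (HFPO-DA, GenX), a fluorinated processing aid, from the sphere stage at 3 to 4 hpf. Control embryos were kept in embryo water without it. Each library was a pool of 8 to 10 embryos, so that differences between single embryos were averaged and a pool counts as 1 replicate. Values of 3 control pools and of 4 pools at each exposure were analysed, and a further control pool, which the labels call an outlier, was not analysed here. The labels do not say whether the pools of a group came from separate clutches, and p-values then measure only the spread between these pools.

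The question was whether the transcripts of this ribosome were higher or lower after exposure. In these pools, no mitochondrial ribosomal protein gene was called in any of 6 comparisons at an adjusted p under 0.1 (limma), where 0% to 0.0144% of all genes were called. Together they took between 0.344% and 0.422% of the reads on listed genes in every pool. The 2 genes furthest from control over the 4 exposures combined were both of the small subunit, mrps6 on the higher side and mrps35 on the lower side, and neither passed the adjusted threshold. The libraries were shallow, with 104350 to 581494 reads on genes and 359 to 2171 reads on the 61 genes per pool, and this limits each single gene. The median tested member had 14 reads in a pool, and 59 of the 60 had at least 1 read in every pool. Of 33 markers of 10 tissues looked up, 29 were among the listed genes. All 29 had reads in every group, as the whole-embryo label implies. In whole-embryo RNA, fewer cells of a type and less RNA per cell cannot be told apart.

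The share of reads was followed first, since it uses the reads of all 61 genes and no normalization factor beyond the total of each pool. A share also depends on how many reads the other genes take. For the 61 genes, it was followed pool by pool. It was 0.403%, 0.387% and 0.377% in the control pools. At 0.5 mg/L it was 0.393%, 0.402%, 0.422% and 0.368%. At 1 mg/L it was 0.387%, 0.395%, 0.386% and 0.373%. These groups overlapped, and the highest and the lowest of these 11 pools were both at 0.5 mg/L. At 2 mg/L it was 0.401%, 0.351%, 0.388% and 0.353%. At 10 mg/L it was 0.380%, 0.381%, 0.385% and 0.344%. The last of these was the shallowest pool, with 359 of its 104350 reads on these genes, and its exact (Clopper-Pearson) 95% binomial interval ran from 0.309% to 0.381%. Such intervals cover counting error only. The mean of the control pools was 0.389% ± 0.013 (SD, n = 3), and the means of the exposed groups, from the lowest exposure to the highest, were 0.396% ± 0.022, 0.385% ± 0.0088, 0.373% ± 0.025 and 0.372% ± 0.019 (SD, n = 4 each). Without the shallowest pool, the mean at 10 mg/L was 0.382% ± 0.0026 (SD, n = 3). Pool d was the lowest of its group at 0.5, 1 and 10 mg/L, and at 2 mg/L only pool b lay below it. No control pool of letter d was analysed, so each exposed mean includes a low pool whose letter the control mean lacks. The part of the letter, or of depth, in the share was not tested. Every group overlapped the control pools, and the means lay within 0.024 percentage points of each other. Pools of one exposure could differ as much as groups: at 0.5 mg/L, pool c, with an interval of 0.395% to 0.451%, lay above pool d, with 0.351% to 0.387%.

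**Figure D1:**
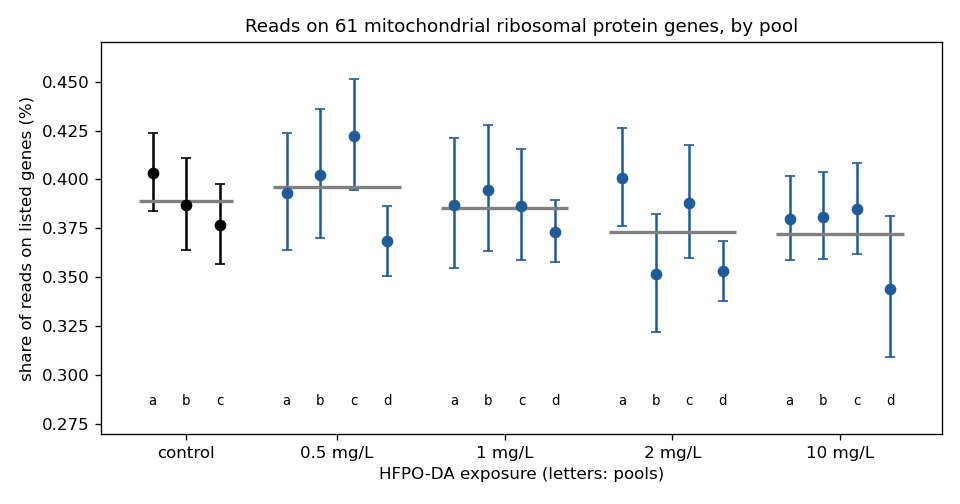
The vertical axis, which does not start at 0, gives the share of reads on 61 mitochondrial ribosomal protein genes in percent, and the horizontal axis the exposure and pool. Points are pools with exact 95% binomial intervals for counting error, and grey lines are group means; the pools lie between 0.344% and 0.422%, and every exposed group overlaps the control pools.

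Large-subunit genes took 0.218% ± 0.0047 (SD, n = 3) of the reads in control pools and 0.217% ± 0.012 (SD, n = 16) in all exposed pools. Small-subunit genes took 0.171% ± 0.013 (SD, n = 3) and 0.165% ± 0.012 (SD, n = 16). The 2 genes mrps18a and mrps30 were counted with the large subunit, where their proteins reside in mammals. The ratio of small-subunit to large-subunit reads was 0.786 ± 0.066 (SD, n = 3) for the control pools, and from the lowest exposure to the highest 0.768 ± 0.073, 0.749 ± 0.068, 0.753 ± 0.062 and 0.767 ± 0.027 (SD, n = 4 each). The balance between the subunits differed between groups by less than 1 SD of the control pools. Over single pools the ratio ran from 0.659 to 0.868, with the control pools at 0.710 to 0.826.

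A pair of other gene groups was set beside them, each followed in the same pools. The 69 cytosolic ribosomal protein genes, which encode the ribosome of the cytosol, took 18.7% ± 1.6 (SD, n = 3) of the control reads and 20.4% ± 0.98 (SD, n = 16) of the exposed reads. The 41 genes named nduf, subunits and assembly factors of complex I of the respiratory chain, took 0.769% ± 0.11 (SD, n = 3) and 0.817% ± 0.053 (SD, n = 16). In the combined comparison, 62 of 65 tested cytosolic genes and 29 of 38 complex I genes had a log2 fold change above 0, with medians of 0.16 and 0.09. For the mitochondrial ribosome the count was 26 of 60 and the median was -0.02, beside -0.05 over all 6933 genes tested. Control pool b was the lowest of the 19 pools for the share of cytosolic ribosomal protein genes, 17.0%, and of complex I genes, 0.670%, whereas its share for the mitochondrial ribosome, 0.387%, lay between those of the other control pools. The difference between these gene groups was not tested.

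At this depth, the genes showed little variation between pools beyond counting error. With a median of 14 reads of a tested member in a pool, modest variation could be hidden by counting error. Reads of each gene were compared with those expected from the depth of each pool in its group. The measure was chi-square per degree of freedom (14 degrees of freedom). Counting error alone gives 1 on average, and a median slightly under 1. The median was 0.982 over the 60 tested members and 1.14 over all genes tested. The interquartile range of the members was 0.826 to 1.34, and the most variable were mrpl20 at 2.86, mrps2 at 2.38 and mrps35 at 2.12. The median was 1.85 for complex I and 10.3 for cytosolic ribosomal protein genes, which also have more reads: a median of 1038 and 15550 reads in all pools, against 322.5 for the mitochondrial ribosome. A value of this kind grows with the reads of a gene, so these medians are not a comparison at equal depth.

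Values are given as deposited, TMM-normalized and not divided by transcript length. The libraries were primed with oligo dT, and whether values grow with transcript length was not tested. The order of genes is therefore one of values only. The 5 highest were mrps33 and mrps26, specific to the mitochondrial small subunit, and mrpl28, mrpl32 and mrpl24, large-subunit proteins with bacterial counterparts. Their means over the 19 pools were 46.6, 41.0, 31.9, 27.6 and 26.5, from 874, 757, 601, 495 and 503 reads. The lowest tested member was mrpl51, with a mean of 5.64 from 108 reads. The spans of 18 members overlap another gene in GRCz12tu, mrpl24, mrpl37, mrpl45, mrpl51, mrpl53, mrps18b, mrps26 and mrps35 among those named here. The default setting of the counting tool separates genes by strand and drops reads that lie on 2 genes of one strand. Reads were mapped to another build, GRCz10, so these overlaps do not show which members lost reads.

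For mrps33, the values were 41.1, 52.4 and 42.5 in the control pools. Exposed pools held 39.6, 43.7, 66.5 and 46.2 (0.5 mg/L), 55.6, 31.4, 51.9 and 46.2 (1 mg/L), 49.3, 43.8, 57.3 and 41.5 (2 mg/L) and 43.4, 46.4, 52.4 and 33.9 (10 mg/L). Control and exposed pools overlapped at every exposure, with a log2 fold change of 0.03 (95% interval -0.34 to 0.40, SE 0.18) for the 4 exposures combined, where SE is the standard error. The values of mrps26 were 49.6, 35.8 and 38.5 in the control pools. Exposed pools held 54.5, 49.1, 33.9 and 37.2 (0.5 mg/L), 36.5, 45.4, 38.9 and 33.3 (1 mg/L), 29.1, 29.2, 55.7 and 38.1 (2 mg/L) and 38.1, 51.1, 41.9 and 43.5 (10 mg/L). They overlapped too, with a log2 fold change of -0.03 (95% interval -0.41 to 0.36, SE 0.19). These 2 genes had the most reads and the narrowest intervals, and both intervals exclude a change of 1.5-fold in either direction. The direction of both depended on the scaling. Means of mrpl28, which is bL28m of the large subunit, were 33.0 ± 1.55 (SD, n = 3) in control pools, then 33.7 ± 14.5 (SD, n = 4) with 0.5, 29.5 ± 0.936 (SD, n = 4) with 1, 30.8 ± 4.35 (SD, n = 4) with 2 and 32.6 ± 3.40 (SD, n = 4) with 10 mg/L of HFPO-DA. The 4 pools at 1 mg/L, 28.6 to 30.7, were all below the control pools, 31.2 to 34.0, a log2 fold change of -0.16 (SE 0.24). For mrpl32, which in mammals and yeast is cut to its mature form by the m-AAA protease of the inner membrane, the log2 fold change for the 4 exposures combined was 0.29 (95% interval -0.13 to 0.71, SE 0.21). It rested on control pool c, being 0.06 without it, and was 0.41 and 0.40 without control pools a and b. Its 4 pools at 10 mg/L, 30.1, 27.4, 31.5 and 36.3, lay above the control pools, 26.9, 26.6 and 16.5. For mrpl24 it was -0.05 (95% interval -0.55 to 0.46, SE 0.25), and the lowest pool, at 7.26, rested on 3 reads in the shallowest pool at 10 mg/L. Its direction depended on the scaling as well. None of the 5 log2 fold changes passed the threshold, with adjusted p between 0.980 and 0.997 (limma).

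The 4 exposures combined were compared with the control pools in a single fit over all 19 pools. limma called 0 of 60 members and 0 of all genes (0% of 6933), and edgeR and DESeq2 on the recovered reads also called 0 members. At an unadjusted p under 0.05, limma found 2 members, or 3.33%, beside 4.76% of all genes, edgeR 3 members and DESeq2 0. Of the members, 26 were above 0 and 34 below (43.3% above, against 43.2% of all genes), with a range of -0.64 to 0.58. This split depended on the scaling: 34 were above 0 with edgeR, and 36 with DESeq2 or after quantile normalization. After rescaling to the same total, 21 were above 0. The median over all genes moved too, from -0.054 to -0.032 (edgeR), -0.013 (DESeq2), -0.0067 (quantile normalization) and -0.091 (rescaled). For 47 of the 60 genes the 95% interval lay inside -1 to 1, so that a 2-fold difference in either direction was outside it. Over all 60 genes, the lowest and highest ends of the intervals were -1.27 for mrps35 and 1.13 for mrps6. No member had all 16 exposed pools on one side of the 3 control pools, as 0.115% of all genes had above and 0.0865% below.

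**Figure D2:**
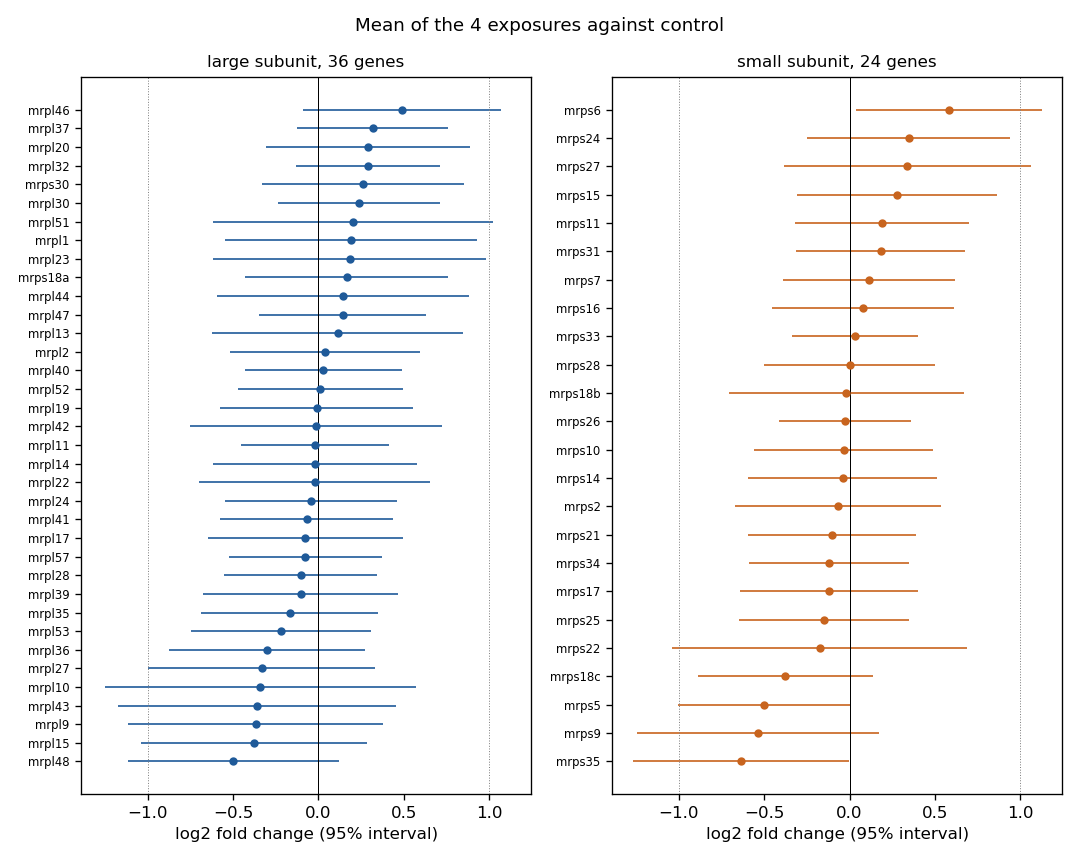
The horizontal axis gives log2 fold changes, the 4 exposures averaged and set against control, with 95% intervals from limma, for the 36 large-subunit (blue) and 24 small-subunit (orange) genes tested; dotted lines mark -1 and 1. Intervals of 47 genes lie inside the dotted lines, and those of mrps6 and mrps35 alone do not cross 0 before adjustment.

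The smallest p of the combined comparison belonged to mrps6, the counterpart of bacterial S6 in the small subunit. Its values were 13.5, 6.43 and 18.9 in the control pools. Exposed pools held 18.2, 21.8, 16.3 and 10.3 (0.5 mg/L), 17.3, 19.2, 18.7 and 23.6 (1 mg/L), 19.1, 16.4, 31.0 and 17.8 (2 mg/L) and 12.4, 19.9, 16.8 and 16.9 (10 mg/L). Control pool b, with 7 reads, was the lowest of the 19 pools, and the other 2 control pools lay among the exposed pools. The log2 fold change was 0.58 (95% interval 0.04 to 1.13, SE 0.27), with unadjusted p = 0.0356 and adjusted p = 0.980 (limma). Without control pools a, b and c in turn it was 0.67, 0.17 and 0.91, with unadjusted p = 0.0429, 0.586 and 0.00619 and adjusted p = 0.698, 0.999 and 0.9999 (limma). The next was mrps35, a protein of the small subunit head that bacteria lack. Its values were 34.7, 25.7 and 16.5 in the control pools. Exposed pools held 21.5, 23.7, 16.3 and 11.5 (0.5 mg/L), 9.59, 6.98, 26.0 and 14.3 (1 mg/L), 15.7, 23.7, 17.0 and 17.4 (2 mg/L) and 23.0, 18.9, 21.0 and 4.84 (10 mg/L). Control pool a was the highest of the 19 pools, the other 2 control pools lay among the exposed pools, and the lowest value rested on 2 reads. The log2 fold change was -0.64 (95% interval -1.27 to -0.01, SE 0.32), with unadjusted p = 0.0481 and adjusted p = 0.980 (limma). Without control pools a, b and c in turn it was -0.39, -0.60 and -0.92, with unadjusted p = 0.304, 0.121 and 0.0175 and adjusted p = 0.889, 0.999 and 0.9999 (limma).

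For mrps5, the counterpart of the bacterial protein S5, which in bacteria lies near the entry of the messenger RNA, the values were 26.2, 23.0 and 19.7 in the control pools. Exposed pools held 9.91, 12.7, 19.0 and 16.7 (0.5 mg/L), 17.3, 12.2, 18.7 and 13.9 (1 mg/L), 13.4, 14.6, 20.1 and 16.4 (2 mg/L) and 18.6, 24.6, 18.9 and 14.5 (10 mg/L). Every pool at 0.5 and 1 mg/L was below every control pool, and at 2 and 10 mg/L 1 pool each lay above the lowest control pool. The log2 fold change of the combined comparison was -0.50 (95% interval -1.01 to 0.01, SE 0.25), with unadjusted p = 0.0528 and adjusted p = 0.980 (limma). TMM-normalized values of the 4 retina markers looked up (opn1sw1, opn1mw1, gnat2 and rho) summed to 1791 to 2404 in control pools, 1307 to 1622 and 1298 to 1590 at these 2 exposures, and 1232 to 1804 and 1205 to 2306 at 2 and 10 mg/L. The 2 neuron markers with values (snap25a and stmn1b) summed to 267 to 378 in control pools and 229 to 262 at 0.5 mg/L, again without overlap, and to 268 to 337, 257 to 310 and 236 to 277 at 1, 2 and 10 mg/L. Most reads of the neuron sum were those of 1 gene, since the other had 43 reads in all pools. The control pools alone held 1252 reads of both. At 0.5 and 1 mg/L, 4.14% and 2.71% of all genes had every exposed pool below every control pool. Marker sums of the other tissues looked up overlapped the control pools at 0.5 and 1 mg/L. Those of skeletal muscle lay towards the higher side, at 8916 to 11349 in control pools and 10960 to 12691 at 0.5 mg/L. None of the retina and neuron markers was at 0 in any group. Apart from rho, the retina markers are among the genes that the study reported as downregulated at every exposure. The lower retina sums come from the same embryo pools, so they are not an independent measure of retinal tissue. The part of any tissue in the values of mrps5, or of any other member, was not tested.

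The other 3 genes with the smallest p in the combined comparison were mrpl46 and mrpl48, which in mammals sit in the central protuberance of the large subunit, and mrps9, the counterpart of bacterial S9. The means of mrps9 were 12.7 ± 4.40 (SD, n = 3) in control pools, then 9.28 ± 1.57 (SD, n = 4) with 0.5, 9.73 ± 4.01 (SD, n = 4) with 1, 8.14 ± 4.03 (SD, n = 4) with 2 and 7.92 ± 2.65 (SD, n = 4) with 10 mg/L of HFPO-DA. It had 181 reads in all pools, and control pool a at 17.7 was its highest value. The log2 fold changes were 0.49 (SE 0.29) for mrpl46, -0.50 (SE 0.31) for mrpl48 and -0.54 (SE 0.35) for mrps9, with adjusted p = 0.980 each (limma). For mrps9 it was -0.28, -0.61 and -0.72 without control pools a, b and c in turn.

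**Figure D3:**
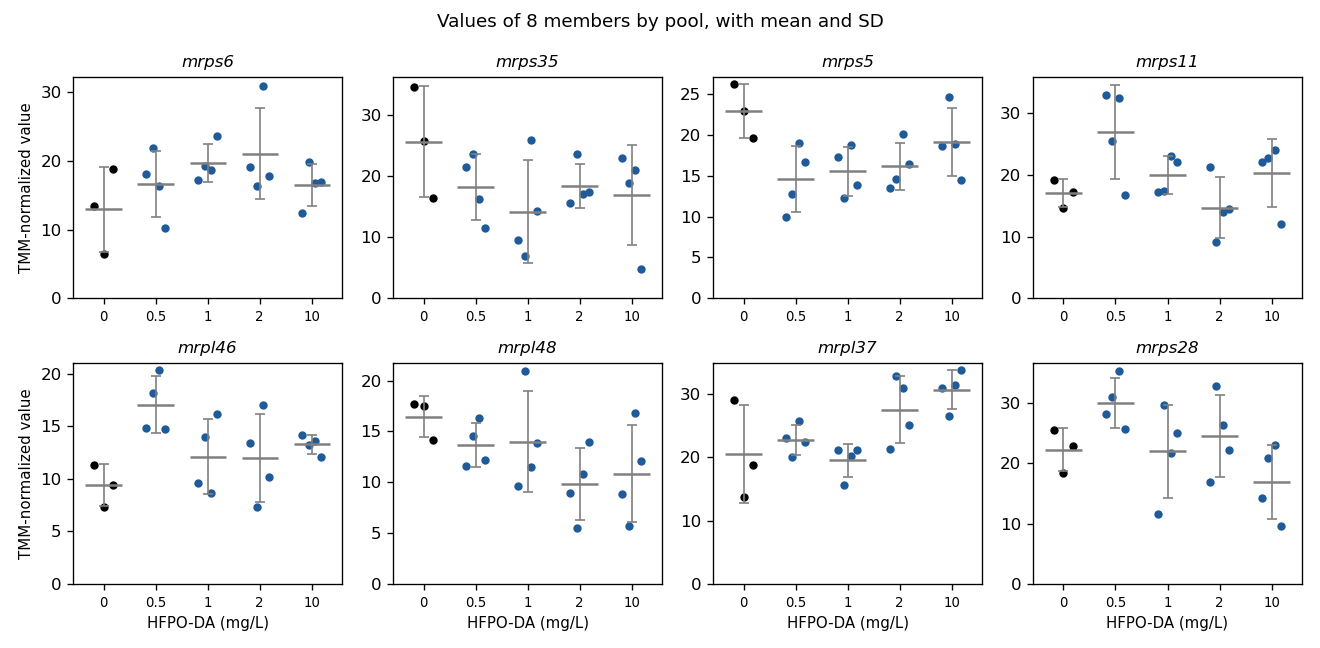
Each panel shows 1 gene, with the HFPO-DA exposure in mg/L on the horizontal axis and the TMM-normalized value on the vertical axis, which starts at 0. Points are pools (3 control pools in black, 4 per exposure in blue), long grey lines are means and error bars are SDs; every gene except mrpl46 at 0.5 and 10 mg/L, mrpl48 at 2 mg/L, mrps5 at 0.5 and 1 mg/L and mrps28 at 0.5 mg/L has exposed pools overlapping the control pools.

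Each exposure was then compared with the same 3 control pools, so the 4 comparisons are not independent of each other. edgeR and DESeq2 called 0 members in each of them, with 3, 3, 1 and 2 members (edgeR) and 1, 0, 0 and 0 members (DESeq2) at an unadjusted p under 0.05, from the lowest exposure to the highest. At 0.5 mg/L, limma called 0 members and 0% of all genes, and 3 members had an unadjusted p under 0.05 (5%, beside 6.2% of all genes). Their log2 fold changes ran from -0.67 to 0.84, with 34 above 0 (56.7%, against 44% of all genes) and 26 below, and a median of 0.07, beside -0.06 over all genes. The median depended on 1 library: without control pool b it was -0.024. The 4 pools were all above the control pools for 5 members (mrpl46 and mrps30 of the large subunit and mrps15, mrps24 and mrps28 of the small), or 8.33%, and below for 2 (mrpl36 and mrps5), or 3.33%, beside 2.35% and 4.14% of all genes.

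The largest of these was mrpl46, at 14.9, 18.2, 20.3 and 14.7 at 0.5 mg/L and 11.3, 7.35 and 9.44 in control pools. The groups did not overlap, and the log2 fold change was 0.84 (95% interval 0.16 to 1.51, SE 0.34), with unadjusted p = 0.0171 and adjusted p = 0.786 (limma). Next to mrpl46 in the RefSeq order of GRCz12tu lies mrps11, the counterpart of bacterial S11 in the platform of the small subunit; they were the one pair of members that neighbour each other, and their spans do not overlap. The values of mrps11 were 33.0, 25.5, 32.6 and 16.7 at 0.5 mg/L and 19.1, 14.7 and 17.3 in control pools. Of its pools at 0.5 mg/L, 3 were above all control pools and pool d lay among them, with a log2 fold change of 0.60 (95% interval 0.04 to 1.17, SE 0.28) and unadjusted p = 0.0379 and adjusted p = 0.793 (limma). At 1, 2 and 10 mg/L the log2 fold changes of mrpl46 were 0.33 (SE 0.38), 0.29 (SE 0.38) and 0.50 (SE 0.34). Those of mrps11 were 0.22 (SE 0.29), -0.26 (SE 0.31) and 0.20 (SE 0.29). On the lower side at 0.5 mg/L, mrps5 had a log2 fold change of -0.67 (95% interval -1.28 to -0.06, SE 0.30), with unadjusted p = 0.0327 and adjusted p = 0.793 (limma).

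At 1 mg/L, limma called 0 members and 0% of all genes, and 2 members had an unadjusted p under 0.05 (3.33%, beside 3.97% of all genes). The median was -0.06, beside -0.04 over all genes, with a range of -0.93 to 0.70, and 26 members were above 0 (43.3%, against 46.1%). Without control pool b the median was -0.15. No member had all 4 pools above the control pools, and 2 (mrpl28 and mrps5) had them below, or 3.33%, beside 2.45% and 2.71% of all genes. The largest difference was that of mrps35, whose values of 9.59, 6.98, 26.0 and 14.3 included 1 pool among the control pools. Its log2 fold change was -0.93 (95% interval -1.65 to -0.22, SE 0.35), with unadjusted p = 0.0117 and adjusted p = 0.998 (limma). For mrps6 the log2 fold change was 0.70 (95% interval 0.02 to 1.38, SE 0.33), with unadjusted p = 0.0426 and adjusted p = 0.998 (limma). Without control pool b it was 0.29. It was -0.56 (SE 0.30) for mrps5.

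At 2 mg/L, limma called 0 members and 0.0144% of all genes, and 2 members had an unadjusted p under 0.05 (3.33%, beside 4.85% of all genes). The median was -0.01, beside -0.04 over all genes, with a range of -0.78 to 0.76, and 27 members were above 0 (45%, against 45.9%). The pools of mrps30 lay above the control pools and those of mrpl48 below, 1 member (1.67%) on each side, beside 2.05% and 3.46% of all genes. For mrpl48, the values were 8.97, 5.47, 10.8 and 14.0 at 2 mg/L and 17.7, 17.5 and 14.2 in control pools, and the highest exposed pool was just under the lowest control pool. The log2 fold change was -0.78 (95% interval -1.49 to -0.07, SE 0.35), with unadjusted p = 0.0329 and adjusted p = 0.912 (limma). For mrps6 it was 0.76 (95% interval 0.10 to 1.42, SE 0.33), with unadjusted p = 0.0245 and adjusted p = 0.912 (limma), and pools at 2 mg/L overlapped the control pools. Without control pool b it was 0.35. For mrps5 it was -0.50 (SE 0.28).

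At 10 mg/L, limma called 0 members and 0.0144% of all genes, and 1 member had an unadjusted p under 0.05 (1.67%, beside 4.21% of all genes). The median was -0.01, beside -0.04 over all genes, with a range of -0.84 to 0.63, and 30 members were above 0 (50%, against 45.3%). The 4 pools were above the control pools for 3 members (mrpl32, mrpl46 and mrps30), or 5%, and below for 2 (mrpl53 and mrpl57), or 3.33%, beside 2.37% and 3.4% of all genes. The smallest p belonged to mrpl37, a large-subunit protein specific to mitochondria, at 31.0, 26.5, 31.5 and 33.9 at 10 mg/L and 29.1, 13.8 and 18.9 in control pools. Of its 4 exposed pools, 3 were above all control pools and pool b lay below control pool a. The log2 fold change was 0.63 (95% interval 0.09 to 1.17, SE 0.26), with unadjusted p = 0.0247 and adjusted p = 0.967 (limma), and 0.38 without control pool b. For mrps35 it was -0.73 (95% interval -1.51 to 0.05, SE 0.38), and for mrpl48 -0.67 (95% interval -1.40 to 0.06, SE 0.36), both overlapping the control pools. They were -0.23 for mrps35 without pool d, the shallowest, and -0.41 for mrpl48 without pool b at 10 mg/L. In all 4 exposures, 9 members were above 0 (15%) and 11 below (18.3%), beside 18.6% and 26.4% of all genes, all against the same control pools.

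**Figure D4:**
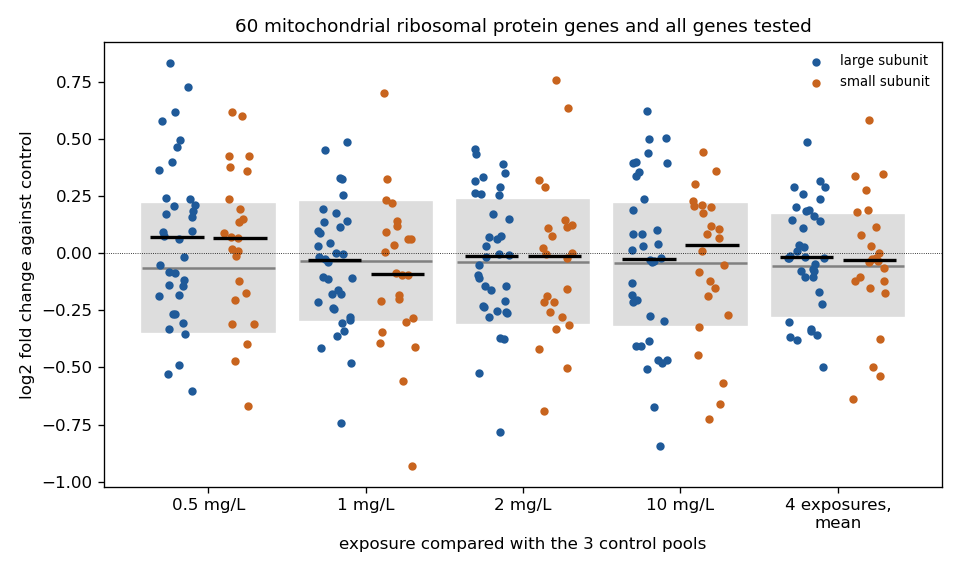
The vertical axis gives log2 fold changes against control for 60 mitochondrial ribosomal protein genes, 1 point per gene, large subunit in blue and small subunit in orange, for each exposure and for the mean of the 4. Black lines are the medians of the large-subunit and of the small-subunit members. Grey boxes and lines are the interquartile range and the median of all 6933 genes, and the medians of both subunits lie inside the grey box at every exposure.

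The subunits were also read by the origin of their proteins. Here mrps18a (mL66) and mrps18b (mS40) were counted as specific to mitochondria, and mrps18c (bS18m) as having a bacterial counterpart. No sequences were compared. In the combined comparison, the median log2 fold change was -0.02 for 21 large-subunit genes with a bacterial counterpart, 0.01 for 15 large-subunit genes specific to mitochondria, -0.03 for 15 small-subunit genes with a counterpart and -0.03 for 9 without. Both genes with an unadjusted p under 0.05 were of the small subunit, 1 of each origin. At single exposures the medians of the 4 classes ran from -0.21, for mitochondria-specific small-subunit genes at 2 mg/L, to 0.10, for mitochondria-specific large-subunit genes at 0.5 mg/L. The median standard error of a single gene was 0.30 to 0.33 in these pairwise comparisons, and the error of a class median was not estimated.

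Differences among the 4 exposures compare no control pool, although the control pools were part of the fit and of its spread. The moderated F test of limma called 0 members and 0% of all genes, and 3 members had an unadjusted p under 0.05 (5%, beside 4.47% of all genes), while edgeR and DESeq2 each called 0 members and gave 0 members with an unadjusted p under 0.05. The 3 were mrps28, the counterpart of bacterial S1, mrpl44, which has the fold of an RNase III and is mutated in a human mitochondrial heart disease, and mrps11. The values of mrps28 were 28.1, 30.9, 35.3 and 25.6 (0.5 mg/L), 11.5, 29.7, 21.6 and 25.0 (1 mg/L), 16.8, 32.8, 26.3 and 22.2 (2 mg/L) and 14.2, 20.8, 23.1 and 9.67 (10 mg/L). All 4 pools at 10 mg/L were below all 4 at 0.5 mg/L, with unadjusted p = 0.0248 and adjusted p = 0.964 (limma). Those of mrpl44 were 16.5, 10.9, 13.6 and 11.5 (0.5 mg/L), 7.68, 5.24, 8.65 and 9.70 (1 mg/L), 7.85, 14.6, 7.74 and 10.6 (2 mg/L) and 5.32, 10.4, 5.24 and 2.42 (10 mg/L). The pools at 0.5 and 10 mg/L did not overlap, the lowest value rested on 1 read, and the F test gave unadjusted p = 0.0294 and adjusted p = 0.964 (limma). For mrps11, the pools at 1, 2 and 10 mg/L were 17.3, 17.5, 23.1 and 22.2, then 21.3, 9.12, 13.9 and 14.5, then 22.2, 22.7, 24.1 and 12.1, overlapping each other, and unadjusted p = 0.0364 and adjusted p = 0.964 (limma). The lowest values of mrps28 and mrpl44 were both those of the shallowest pool. Both genes were picked for a small p among these same pools. The share of all genes without overlap between 0.5 and 10 mg/L was not counted, so their separation adds nothing to the p.

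Other nuclear genes of mitochondrial translation were listed by role. Proteins of the same ribosome under other names (dap3, chchd1, aurkaip1, ptcd3 and ict1) were all tested, with 0 called and 0 at an unadjusted p under 0.05 in every comparison (limma), and their median in the combined comparison was -0.01 on the log2 scale. The furthest from control were dap3, a GTP-binding protein of the small subunit, at 0.27 (SE 0.27), and ptcd3 at -0.18 (SE 0.30). Of 10 tested translation factors, 0 were called, 1 was lower at 0.5 mg/L at an unadjusted p under 0.05 (10%, beside 6.2% of all genes) and 0 in the other comparisons, the combined one included. In the combined comparison, 8 were below 0 and the median was -0.26. The 2 with the smallest p were oxa1l, which inserts nascent proteins into the inner membrane, at -0.58 (SE 0.30), and taco1, an activator of cytochrome oxidase translation, at 0.72 (SE 0.46). Their reads were few, 256 and 30 in all pools, and adjusted p = 0.980 for both (limma).

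Of 13 tested genes of ribosome assembly and rRNA modification, 0 were called, 1 was lower at 0.5 mg/L at an unadjusted p under 0.05 (7.69%) and 0 in the other comparisons, and the combined median was -0.07. The GTPase noa1 was at -0.89 (SE 0.45, 33 reads) and lyrm7, better known for the assembly of complex III, at 0.48 (SE 0.36, 173 reads). For 7 tested aminoacyl-tRNA synthetases and related enzymes, with 0 called, the median was -0.15, and gatb, a subunit of the glutamyl-tRNA amidotransferase, and nars2, the asparaginyl-tRNA synthetase, were at -0.76 (SE 0.47) and 0.73 (SE 0.46). Of these 7, 1 (14.3%) was lower at an unadjusted p under 0.05 at each of 0.5, 1 and 2 mg/L, beside 6.2%, 3.97% and 4.85% of all genes, and 0 at 10 mg/L and combined. Among the exposures it was 1 (14.3%, beside 4.47%), with adjusted p = 0.964 (limma). For 9 genes of mitochondrial RNA processing, with 0 called and 0 at an unadjusted p under 0.05 in any comparison, the median was -0.10, and lrpprc, which stabilizes mitochondrial messenger RNAs, was at -0.30 (SE 0.22) and the helicase supv3l1 at -0.48 (SE 0.42). For 7 genes of mitochondrial DNA and transcription, with 0 called and 0 at an unadjusted p under 0.05 likewise, it was 0.17, and the nuclease mgme1 was at 0.69 (SE 0.49) and the helicase peo1 at -0.63 (SE 0.46).

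For general mitochondrial content, 16 genes of the outer membrane, import, chaperones and inner membrane were tested, with 0 called and a median of -0.01, and 1 at an unadjusted p under 0.05 in the combined comparison. This was timm8a, an import chaperone, at 7.73 ± 3.73 (SD, n = 3) in control pools, against 13.7 ± 4.43 (SD, n = 16) in exposed pools, or 0.84 (SE 0.32) on the log2 scale with adjusted p = 0.980 (limma). The next was immt, which shapes the cristae, at 0.48 (SE 0.25). At 0.5 mg/L, 4 of the 16 had an unadjusted p under 0.05 (25%, beside 6.2% of all genes), 2 in each direction. At 1, 2 and 10 mg/L and among the exposures it was 1, 2, 1 and 1 of the 16. The 13 protein-coding genes of mitochondrial DNA, which this ribosome translates, were not analysed here.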

How the data were processed

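Whole-embryo poly(A) RNA was sequenced from pools, and each pool's group came from the sample labels. The authors trimmed reads, removed ribosomal RNA, mapped to GRCz10, removed copies by molecular identifier, counted reads on genes (HTSeq 0.13.5, UMI-tools 1.1.2, Trimmomatic 0.40) and applied TMM normalization. The deposited values are this TMM-normalized signal, with zeros replaced by 0.5 reads before scaling. Whole reads were recovered from them: 100% of the values above the smallest were whole multiples of 1 read within 0.001. Gene models of another build were used only for names, neighbours and overlapping spans.

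limma 3.58.1 in R 4.3.3 (lmFit, eBayes with trend, two-sided) was run on log2 of the value plus 0.5, which understates changes of low genes, over 6933 genes above 2.75 CPM. Calls were made at a Benjamini-Hochberg adjusted p under 0.1. Exposures were first compared with control singly. Their mean, and differences among them (moderated F), were tested in a fit over 5 groups. Intervals use moderated standard errors. edgeR 4.0.16, DESeq2 1.42.0, other pseudocounts, filters, scalings and leaving out each pool were alternatives. The fits were tested on simulated reads, with changes larger than those of any member and only in genes of higher CPM. How well smaller changes are recovered was not simulated. The genes named with values had the 5 highest means, or the 6 (combined) or 3 (each other comparison) smallest p. Members and gene lists were chosen with earlier results of these data known. The test of the study, noiseqbio, was not installed. With it, the study reported far more genes at each exposure, at an FDR under 0.1, than limma called here. The study analysed a larger set of genes than the 6933 tested here. Whether any member was among the genes it reported is not compared here.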

Additional observations from a re-analysis of the deposited data

Results flagged for a closer look

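In groups of 4 pools, the highest or lowest pool was compared with the others, and was taken as far away when its gap to the nearest was over 0.829 of the whole range. This was done for 68 groups, namely 15 named genes, the share of reads and the ratio of the subunits at 4 exposures, and chance gives about 1 in 20, or 3.4. There were 4 such pools. The share of reads on the 61 genes was lowest in pool d at 10 mg/L, 0.344%, where the other 3 pools lay at 0.380% to 0.385%; this pool had 104350 reads, the fewest of the 19. In the same pool, mrps11 was lowest at 12.1, from 5 reads, against 22.2 to 24.1. At 1 mg/L, mrpl32 was lowest in pool d at 18.5, from 40 reads, against 26.2 to 27.4, and mrps9 was highest in pool b at 15.7, from 9 reads, against 7.21 to 8.32. Pool d at 1 mg/L was the deepest of the 19, with 581494 reads.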

How the results depend on the processing

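No mitochondrial ribosomal protein gene was called under any of the alternatives run, and over them the smallest adjusted p of a member was 0.239 at 0.5 mg/L without control pool a (limma). The number of members with an unadjusted p under 0.05 ranged over the alternatives from 1 to 5 at 0.5 mg/L, 0 to 3 at 1 mg/L, 0 to 3 at 2 mg/L, 0 to 4 at 10 mg/L, 0 to 3 combined and 0 to 5 among the exposures. Without control pool b it was 1, 1, 0, 0 and 0 in the first 5. The member median stayed within 1 SD between pools except when a pool was left out: over these, it ranged from -0.024 to 0.11 at 0.5 mg/L and from -0.15 to -0.0039 at 1 mg/L. At 10 mg/L it ranged from -0.06 to 0.09.

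Counts over all genes moved more. Leaving out single pools gave 0 to 46 genes called at 0.5 mg/L, 0 to 1 at 1 mg/L, 0 to 8 at 2 mg/L, 0 to 3 at 10 mg/L and 0 to 31 combined, the highest at 0.5, 2 and 10 mg/L and combined without control pool a. With a replicate block for the letters a to d, 29, 2 and 3 genes were called at 0.5, 1 and 2 mg/L, and 0 members. The letters name different pools, pool d of each exposure has no control pool of its letter, and deviations of same-letter pools correlated at -0.06 to 0.18, with 3 of 36 pairs over 0.1 (all 3 among the 6 pairs of letter d, median 0.065) against 1 of 108 pairs of unlike letters. Not every pair was over 0.1, so the letters were not taken as pairs, a rule that says little about letter d alone. Pool d was the deepest of its group at 0.5, 1 and 2 mg/L, with 443076, 581494 and 579196 reads. It was the shallowest at 10 mg/L, with 104350. What the pools of letter d share, depth included, was not tested. With no filter, 1, 2 and 2 genes were called at 1, 2 and 10 mg/L. edgeR called 2 at 2 mg/L, 5 combined and 3 among the exposures, and quantile normalization 1 combined. The single gene called at 2 mg/L became 0 with a pseudocount of 0.1, a mean above 10 CPM, quantile normalization, limma without trend, 1 fit over 5 groups, DESeq2 or an adjusted p under 0.05, and that at 10 mg/L became 0 with a mean above 10 CPM, limma without trend, 1 fit over 5 groups or an adjusted p under 0.05. The cause was not tested.

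Among the genes with the 5 highest means or the 6 smallest p of the combined comparison, its sign turned for 3, all with log2 fold changes near 0. For mrps33 (0.03) it was -0.00882 after rescaling to the same total, and -0.034 to 0.139 when single pools were left out. For mrps26 (-0.03) it was 0.0333 after quantile normalization, 0.00330 with the block, 0.00420 with DESeq2, and -0.120 to 0.112 when single pools were left out. For mrpl24 (-0.05) it was 0.0236 after quantile normalization, 0.0867 with the block, 0.0228 with DESeq2, and -0.254 to 0.175 when single pools were left out. Of the genes named for other comparisons, mrpl44 turned from 0.14 to -0.34 and mrps28 from 0.0017 to -0.13 in the combined comparison without control pool b. The depth, a median of 14 reads of a member in a pool, limits these values: a 95% interval for the combined comparison left a 2-fold difference possible for 13 of 60 members.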
